A study of Saccharomyces cerevisiae with 8 samples.

Results

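Cryptic unstable transcripts (CUTs) are short non-coding RNAs of budding yeast that the nuclear exosome degrades. They were taken here as every row of the deposited density table whose name starts with CUT, which gave 913 of 11844 rows. Of these, 756 had a mean over the 8 libraries of at least 2 scaled reads per kb and entered the tests, 130 had reads but lay below that mean, and 27 had no read in any library. A scaled read is a read times the factor that the authors gave its library, and the value of a row is the deposited density times 1000. What the factors were set on is not given in the sources used here. Times the median-of-ratios size factors of the snoRNAs they gave 0.994 to 1.017 in the 8 libraries, and times those of the protein-coding genes 0.462 to 2.074, so each value, fold and sum here is close to one relative to the small nucleolar RNAs (snoRNAs).

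All cells were of the haploid strain BY4741 (MATa his3Δ1 leu2Δ0 met15Δ0 ura3Δ0), grown in YPD medium at 30 °C to an OD600 of 0.5. Wild-type cells (WT) and cells with UPF1 deleted by a kanMX4 insert (upf1) were given 100 µg/ml cycloheximide (CHX), which blocks translation elongation, or an equal volume of its solvent DMSO, for 15 minutes. Both strains carried the 4 marker mutations, and how much of UPF1 was removed is not given in the labels. Total RNA was incubated with Terminator, an exonuclease that removes RNA with a 5′ monophosphate and spares RNA with a cap, and stranded libraries were then made. For every library 1.5 µg of RNA and 3 µl of ERCC spike-in are listed. Whether the spike-in entered the library factors is not given in the sources used here. Each of the 4 groups had 2 libraries, called biological replicates in the design text. Undigested libraries were not analysed here, so more of an RNA and a larger capped share of it cannot be told apart. Nor can a whole culture separate fewer cells with an RNA from less of it in each cell.

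CUTs are made by RNA polymerase II, often divergently from the promoters of genes. The Nrd1-Nab3-Sen1 complex ends them early, the TRAMP complex adds a short oligo(A) tail, and the nuclear exosome with its subunit Rrp6 degrades them, so that in wild-type cells little of them is seen. Stable unannotated transcripts (SUTs) are largely visible without removing the exosome, and Xrn1-sensitive transcripts (XUTs) are degraded in the cytoplasm, many of them through nonsense-mediated decay (NMD), the translation-coupled pathway of the Upf1 helicase. CHX halts that pathway along with translation. The snoRNAs are matured by the same nuclear exosome and guide the modification of other RNAs.

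The table gives neither the position nor the strand of a CUT, but its rows follow the chromosomes: of 6061 consecutive pairs of rows with a RefSeq position, 99.8% were in order of start. CUT rows have no position and could not enter this check. If they follow the same order, neighbouring rows place a CUT between named genes, without saying on which strand it lies or whether it overlaps them. By this order 24 CUTs stood next to a snoRNA row, and they held 17.5% of the summed mean of all CUTs. The sequences of 3 of these snoRNAs are shown, since the CUTs beside them lead the results below. They are from RefSeq for R64, written 5′ to 3′ on the strand of the snoRNA, with box C (TGATGA) and the last box D (CTGA) in capitals.
snR52, beside CUT567, chrV:431129-431220, minus strand: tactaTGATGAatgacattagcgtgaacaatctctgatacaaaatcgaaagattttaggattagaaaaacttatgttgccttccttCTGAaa
snR62, beside CUT841, chrXV:409765-409864, minus strand: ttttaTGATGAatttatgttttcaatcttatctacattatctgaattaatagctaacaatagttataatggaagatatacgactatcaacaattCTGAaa
snR71, beside CUT180, chrVIII:411228-411317, plus strand: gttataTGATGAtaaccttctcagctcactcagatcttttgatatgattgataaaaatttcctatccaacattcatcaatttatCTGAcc
All 3 have box C before box D, the pair that defines one of the main families of snoRNAs. The letters TGATGA followed by CTGA were found on the annotated strand in 42 of 76 RefSeq snoRNAs (55.3%), and in 0.715%, 0.838% and 0.695% of genome windows of the lengths of snR52, snR62 and snR71 on either strand.

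The libraries held 1310994 to 5689067 reads over the listed rows, and CUTs held 1396 to 12825 of them. The median CUT had 1 and 0 reads in WT with DMSO, 4 and 6 in WT with CHX, 2 and 1 in upf1 with DMSO, and 2 and 8 in upf1 with CHX. Across the 756 tested CUTs, log values of the replicates correlated at 0.707 in WT with DMSO, 0.825 in WT with CHX, 0.729 in upf1 with DMSO and 0.720 in upf1 with CHX, against 0.935 to 0.954 across all tested rows. The deleted gene, listed as NAM7, was read in every library, at 14.8 and 15.2 in WT with DMSO, 83.5 and 44.8 in WT with CHX, 5.94 and 2.80 in upf1 with DMSO, and 13.5 and 10.1 in upf1 with CHX. All upf1 libraries were below all WT libraries, and in DMSO NAM7 fell by 1.46 ± 0.386 on the log2 scale (± SE, limma adjusted p = 0.0439). That call ended without any 1 of the 8 libraries.

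As a class, CUTs were low in DMSO in both strains and higher in CHX in both. Their summed values, in units of 1000 scaled reads, were 2.82 and 2.32 in WT with DMSO, 8.59 and 7.48 in WT with CHX, 3.10 and 2.83 in upf1 with DMSO, and 6.81 and 6.66 in upf1 with CHX. No library of one group lay within the range of another group. The mean went from 2.57 ± 0.350 (SD, n = 2) to 8.03 ± 0.787 on CHX in WT, 3.13-fold higher, and from 2.97 ± 0.194 to 6.73 ± 0.108 in upf1, 2.27-fold higher. Between the strains, the CUT sum was 1.15-fold higher in upf1 in DMSO and 1.19-fold lower in upf1 in CHX.

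XUTs and SUTs, the classes most like CUTs, followed another order of groups. The sum of the XUTs was 3.27-fold higher in upf1 than in WT in DMSO and 1.45-fold higher in CHX, and that of the SUTs 3.19-fold and 1.48-fold higher. On CHX it was 5.20-fold higher in WT and 2.29-fold higher in upf1 for XUTs, and 5.32-fold and 2.47-fold higher for SUTs. The sum of the protein-coding genes was 1.86-fold higher on CHX in WT and 1.74-fold higher in upf1. These sums carry no test. The group with the highest CUT sum was WT CHX, while for XUTs and SUTs it was upf1 CHX.

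**Figure D1:**
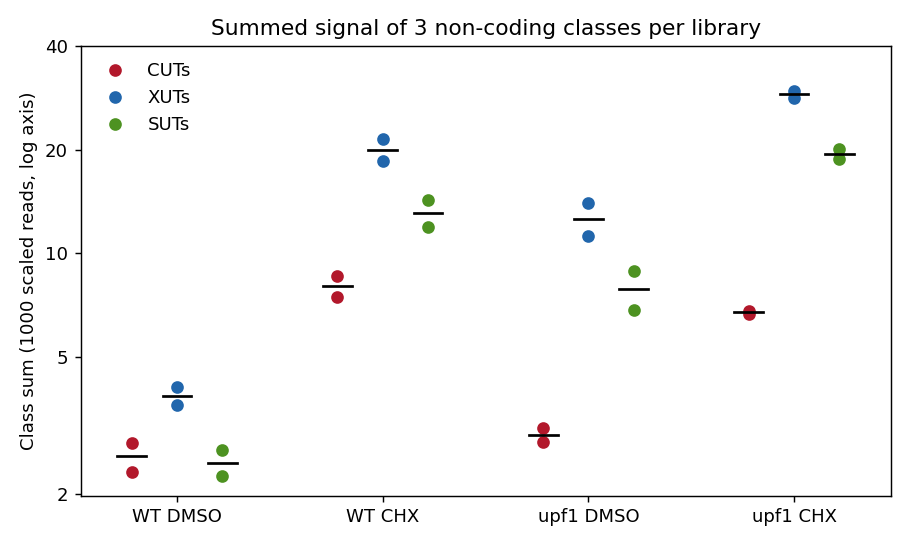
Summed signal of CUTs, XUTs and SUTs in each library, in units of 1000 scaled reads on a log axis. Each point is a library and each bar the mean of the 2 libraries of a group; CUT sums are 2.32 to 3.10 in DMSO and 6.66 to 8.59 in CHX.

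The deposited factors decide how large these changes look. With each library set instead to a common median of the protein-coding genes, the median change of all tested rows on CHX in WT went from 1.42 to 0.36 on the log2 scale, and in upf1 from 1.22 to -0.01. On that scale the CUT sum changed by 0.12 on CHX in WT, by -0.31 on CHX in upf1, by -0.55 in upf1 against WT in DMSO and by -0.98 in CHX, so the direction of the 2 in the middle turned. The share of reads taken by CUTs, which no factor enters, was 0.126% and 0.106% in WT with DMSO, 0.265% and 0.242% in WT with CHX, 0.13% and 0.137% in upf1 with DMSO, and 0.208% and 0.225% in upf1 with CHX. By share too, both CHX groups lay above both DMSO groups, and upf1 CHX lay below WT CHX. A share depends on all other rows, and the rise on CHX was not particular to CUTs. Protein-coding genes held 53.1% and 53.5% in WT with DMSO, 71% and 67.2% in WT with CHX, 58.8% and 56.5% in upf1 with DMSO, and 72.5% and 71.3% in upf1 with CHX. The shares of XUTs and SUTs were higher on CHX in both strains as well.

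More CUTs were read at all after CHX. A read was found for 529 and 368 of the 913 CUTs in WT with DMSO, 790 and 808 in WT with CHX, 669 and 591 in upf1 with DMSO, and 719 and 852 in upf1 with CHX. Libraries differ in depth, so the number expected at the depth of the shallowest library was also computed. It was 423 and 368 in WT with DMSO, 689 and 642 in WT with CHX, 508 and 496 in upf1 with DMSO, and 670 and 676 in upf1 with CHX. At equal depth the WT DMSO libraries had the fewest CUTs with a read, and the CHX libraries of both strains overlapped. A read in every library was found for 298 CUTs, and 199 of the tested CUTs had none in WT DMSO.

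CUT signal was concentrated in few rows. The 12 highest CUTs made up 33.7% of the summed mean and 55 CUTs made up 50% of it. CUT567, listed on chromosome V between snR52 and GLC7, held 8.66% alone. It stood at 1419 and 815 scaled reads per kb in WT with DMSO, 2650 and 1874 in WT with CHX, 407 and 532 in upf1 with DMSO, and 1044 and 859 in upf1 with CHX. Its levels were highest in WT CHX and lowest in upf1 DMSO, with no overlap between these groups and any other.

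The reads of CUT567 followed those of snR52, the snoRNA printed above, which RNA polymerase III transcribes. CUT567 had 220 and 71 reads in WT with DMSO, 318 and 412 in WT with CHX, 73 and 81 in upf1 with DMSO, and 82 and 240 in upf1 with CHX. The row of snR52 had 212 and 68, 306 and 396, 69 and 77, and 74 and 225 in the same libraries. In each library CUT567 thus had slightly more reads than the snoRNA beside it, and whether the rows count the same reads was not tested.

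The next CUTs by level fell into those that changed on CHX and those that did not pass. CUT484, between the ribosomal protein genes RPL13A and RPP1A, stood at 397 and 465 in WT with DMSO, 1340 and 889 in WT with CHX, 553 and 316 in upf1 with DMSO, and 1053 and 866 in upf1 with CHX. Each CHX library lay above each DMSO library, and the strains overlapped in each treatment. It rose by 1.34 ± 0.307 in WT (limma adjusted p = 0.00677) and by 1.19 ± 0.307 in upf1 (adjusted p = 0.0140). The call in WT ended without WT CHX replicate 1 and that in upf1 without either upf1 CHX replicate 1 or upf1 DMSO replicate 2.

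CUT015, beside a tRNA gene for valine between TCM62 and GIP1, was nearly level, at 855 and 795 in WT with DMSO, 754 and 782 in WT with CHX, 736 and 717 in upf1 with DMSO, and 556 and 675 in upf1 with CHX. CUT155, between PPT1 and the asparagine synthetase gene ASN2, had 483 and 522, 379 and 457, 423 and 504, and 372 and 399. Neither passed in any comparison, and their changes on CHX in WT were -0.10 ± 0.160 and -0.27 ± 0.180 while the median CUT changed by 1.78.

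Among the remaining 8 of the highest 12, CUT496 beside the glycolytic gene TPI1, CUT221, CUT146 beside snR46 and CUT350 beside the deadenylase gene POP2 were higher on CHX in both strains, by 0.84 to 1.89 on the log2 scale. The calls of CUT350 held without each library, those of CUT496 and CUT146 in WT ended without WT CHX replicate 1, and in upf1 4 libraries ended the call of CUT496 and 6 that of CUT221. CUT787, beside the ribosomal protein gene RPL20A, rose in WT by 1.77 ± 0.478 (adjusted p = 0.0129, not called without either WT CHX replicate 1 or WT DMSO replicate 1), and its change of 1.17 in upf1 did not pass (adjusted p = 0.0613). CUT544, between snR80 and RPL12A, rose in upf1 by 1.47 ± 0.510 (adjusted p = 0.0370), with a change of 1.07 in WT that did not pass (adjusted p = 0.0914). The call of CUT544 in upf1 ended without any 1 of 6 libraries. CUT677 beside snR190 and CUT628 beside the glycolytic gene TDH3 passed in neither strain. CUT628 stood at 213 and 195 in WT with DMSO, 258 and 291 in WT with CHX, 156 and 145 in upf1 with DMSO, and 177 and 118 in upf1 with CHX. Without these 12 CUTs the log2 ratio of the CUT sums was 2.15 on CHX in WT against 1.64 with them, 1.45 against 1.18 in upf1, and 0.50 against 0.21 in upf1 against WT in DMSO.

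CUTs were short. Lengths are recovered from the steps of the densities, and among the 529 CUTs with at least 20 reads they ran from 105 to 3433 bases with a median of 465, against 953 for SUTs and 765.5 for XUTs. CUT530 was the shortest and CUT792, between FKS3 and GAS1, the longest, with a mean of 0.599 scaled reads per kb that kept it out of the tests. Divided by 8, the length left 1 for 96.6% of CUTs and 95.9% of SUTs, and for 13.1% of XUTs and 13.2% of NUTs (transcripts that extend when Nrd1 is removed). CUTs and SUTs were first catalogued together on tiling arrays.

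The catalogues overlap. In every library, 40 CUTs had exactly the reads of another row nearby, 23 of them with an XUT, 21 with a NUT and 4 with both. CUT395 matched XUT0845, CUT301 matched NUT0595 and CUT516 matched XUT1091. Of the 40, 39 were tested and 25 were higher on CHX in WT, where 68.8% of all tested CUTs and 69.8% of all rows were. That count is not a result about the 40, and these rows do not tell a CUT from its partner.

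On CHX in WT, 520 of the 756 tested CUTs (68.8%) rose and 1 fell by limma at an adjusted p under 0.05. Of the 756, 199 had no read in WT DMSO and so could not fall on CHX in WT. Among these, 50 had no read in any DMSO library and entered through the CHX groups alone. How many of the 199 were called was not counted. Over all 10392 tested rows 69.8% rose and 0.106% fell, so CUTs were called at about the rate of the whole table. Their median change was 1.78 (3.44-fold) against 1.42 for all rows, 1.80 for XUTs, 1.75 for SUTs and 1.23 for protein-coding genes. In 85.4% of CUTs both CHX libraries lay above both DMSO libraries, against 85.5% of all rows, and in 7 CUTs (0.926%) below them, against 0.953%. With the coding median as reference, 161 CUTs (21.3%) were higher and 16 (2.12%) lower, against 14.6% and 4.99% of all rows. After quantile normalization 50 (6.61%) and 25 (3.31%) were, against 6.04% and 5.3%. Without WT CHX replicate 1 fewer CUTs were called higher, and so were fewer of all rows.

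Several of the CUTs with the largest rises on CHX in WT had no read in WT DMSO. CUT877, on chromosome XVI between KAR9 (spindle positioning) and PLC1 (phospholipase C), stood at 0 and 0 in WT with DMSO, 41.4 and 78.1 in WT with CHX, 5.03 and 2.97 in upf1 with DMSO, and 39.9 and 53.4 in upf1 with CHX. All CHX libraries lay above all DMSO libraries, and upf1 DMSO lay between WT DMSO and the rest. With 49 reads against 0, and 3 reads over the group as the floor, CUT877 was at least 11.6-fold higher on CHX in WT (limma adjusted p = 0.000377).

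CUT480, between the glucose sensor gene RGT2 and ARF2, went from 0 and 0 in WT DMSO to 33.5 and 34.9 in WT with CHX, with 4.08 and 4.81 in upf1 with DMSO and 36.9 and 36.7 in upf1 with CHX. The CHX groups of the strains were close and the upf1 DMSO libraries lay above those of WT DMSO. It was at least 15.2-fold higher on CHX in WT, with 64 reads against 0 (adjusted p = 0.000274), and rose by 2.59 ± 0.258 on the log2 scale in upf1 (adjusted p = 0.00146).

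CUT744, listed between the meiotic gene RED1 and the ribosomal protein gene RPS28B, and CUT154, between COG2 and the ammonium permease gene MEP1, were also at 0 in WT DMSO. CUT744 had 48.1 and 39.4 in WT with CHX, 4.02 and 4.74 in upf1 with DMSO, and 18.2 and 25.8 in upf1 with CHX, at least 4.75-fold higher on CHX in WT. CUT154 had 32.9 and 35.9, 9.43 and 7.42, and 28.5 and 28.3 in those groups, at least 4.99-fold higher. In both, the order from low to high was WT DMSO, upf1 DMSO, upf1 CHX and WT CHX without overlap.

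CUT180, beside the snoRNA snR71 printed above, was among the 8. It stood at 17.8 and 0 in WT with DMSO, 219 and 245 in WT with CHX, 30.8 and 18.1 in upf1 with DMSO, and 174 and 148 in upf1 with CHX. The CHX libraries of both strains lay far above the DMSO libraries. Its fitted change was 5.21 ± 0.893 in WT (adjusted p = 0.00226), but 6.87 without WT DMSO replicate 1 and 3.56 without WT DMSO replicate 2, and 58 reads against 2 gave a ratio of 20.7 with an exact 95% interval from 5.47 to 175. Such intervals cover counting error only. snR71 rose by 2.04 ± 0.285 in WT (adjusted p = 0.00117) and by 1.49 ± 0.285 in upf1 (adjusted p = 0.00601), and its reads were 9 and 6 in WT with DMSO, 38 and 48 in WT with CHX, 10 and 6 in upf1 with DMSO, and 9 and 44 in upf1 with CHX.

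CUT300, on chromosome XIII between the kinetochore gene SPC24 and SHH3, was named in both strains. It stood at 5.83 and 5.18 in WT with DMSO, 151 and 123 in WT with CHX, 7.55 and 2.97 in upf1 with DMSO, and 91.2 and 90.6 in upf1 with CHX. The DMSO groups overlapped, and WT CHX lay above upf1 CHX. It rose by 4.21 ± 0.336 in WT (adjusted p = 0.000377) and by 3.75 ± 0.336 in upf1 (adjusted p = 0.00108). CUT223, beside STR2, and CUT115, beside the ubiquitin ligase gene SLX8, complete the 8 largest, with 29 reads against 1 and 38 against 1 on CHX in WT. Their fitted changes of 4.15 and 4.03 became 5.04 and 2.93 without WT DMSO replicate 1, and 3.26 and 5.12 without WT DMSO replicate 2. The only fall was CUT034, between SWC5 and PBP2, with 3 reads against 8 and a value 3.74-fold lower whose interval, from 0.898 to 21.9, spans 1. The calls of the 8 rises held without each library in turn, and the fall ended without any 1 of 5 libraries.

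**Figure D2:**
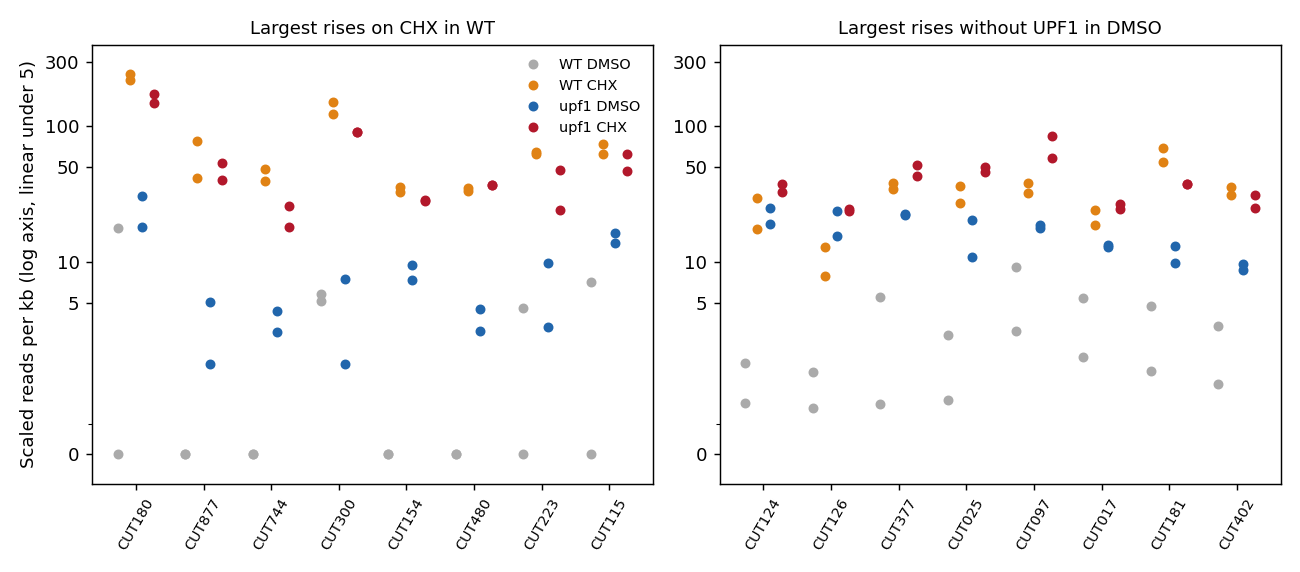
Value of named CUTs in each library, in scaled reads per kb on an axis that is logarithmic above 5 and linear below. The left panel shows the 8 largest rises on CHX in WT and the right panel the 8 largest rises in upf1 against WT in DMSO, chosen by these values; WT DMSO libraries (grey) lie lowest for most, at 0 in both libraries for CUT877, CUT744, CUT154 and CUT480.

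On CHX in upf1, 345 of the 756 CUTs (45.6%) rose and 1 fell, against 64.1% and 0.154% of all tested rows. The share was lower than for XUTs (54.6%), SUTs (55%) and protein-coding genes (74%). CUTs without a read in upf1 DMSO could not fall here. They include the 50 without a read in any DMSO library, and their full number was not counted. The median change of CUTs was 1.18, close to 1.22 for all rows, 1.24 for XUTs and 1.13 for SUTs. Both CHX libraries lay above both DMSO libraries for 75.7% of CUTs and 86.7% of all rows, and below them for 6 CUTs (0.794%) and 0.972% of all rows. With the coding median as reference 11 CUTs (1.46%) were higher and 7 (0.926%) lower, against 1.38% and 1.87% of all rows, and after quantile normalization 8 (1.06%) each way, against 1.79% and 1.15%. The count of higher CUTs fell when upf1 DMSO replicate 2, upf1 CHX replicate 1 or upf1 CHX replicate 2 was left out. That of all rows fell in each case too.

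The comparisons of CHX in the 2 strains share no library. They do share the residual spread of the 1 fit of all 8 libraries, so a row of small spread is more easily called in both. Of the CUTs that rose, 308 did so in both, which is 59.2% of the 520 of WT and 89.3% of the 345 of upf1. Over all rows the shares were 77.7% and 84.6%. The 212 CUTs called higher in WT and not called in upf1 had a median change of 0.84 in upf1, against 1.18 for all tested CUTs. Of the 212, 199 (93.9%) were positive there, near the 93.1% of all tested CUTs and 95.9% of all rows.

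CUT841, listed just before snR62, was named for its rise in upf1. It stood at 11.4 and 8.13 in WT with DMSO, 163 and 126 in WT with CHX, 11.9 and 6.99 in upf1 with DMSO, and 98.4 and 78.7 in upf1 with CHX. The DMSO groups overlapped and WT CHX lay above upf1 CHX. It rose by 3.01 ± 0.310 in upf1 (limma adjusted p = 0.00157) and by 3.64 ± 0.310 in WT (adjusted p = 0.000418). The snoRNA beside it rose too, snR62 by 2.26 ± 0.276 in upf1 (adjusted p = 0.00224) and by 2.55 ± 0.276 in WT (adjusted p = 0.000577). CUT841 had 5 and 2 reads in WT with DMSO, 55 and 78 in WT with CHX, 6 and 3 in upf1 with DMSO, and 22 and 62 in upf1 with CHX, and snR62 had 6 and 4, 34 and 50, 10 and 5, and 17 and 58.

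CUT605, before the GABA transaminase gene UGA1, stood at 3.29 and 2.92 in WT with DMSO, 76.5 and 63.8 in WT with CHX, 5.68 and 3.35 in upf1 with DMSO, and 48.2 and 60.2 in upf1 with CHX. CUT267, before the transcription factor gene PDR8, stood at 2.71 and 0, 63.1 and 29.7, 2.35 and 2.77, and 34.5 and 33.2. Both had every CHX library above every DMSO library, and rose in upf1 by 3.13 ± 0.289 (adjusted p = 0.00121) and 2.98 ± 0.487 (adjusted p = 0.00414). CUT312 beside the purine gene ADE4, CUT066 beside PST1 and CUT850 beside SME1 had 38, 29 and 30 reads in upf1 CHX against 2 each in upf1 DMSO. Their fitted rises in upf1 were 3.44, 3.30 and 3.11, and their order depended on the libraries. Without upf1 DMSO replicate 1 CUT312 was at 4.14 and CUT850 at 4.10, with CUT066 lowest, and without upf1 DMSO replicate 2 they were at 2.74 and 2.12, with CUT066 highest. CUT850 was at 3.74 when replicate 1 of upf1 CHX was left out and at 2.47 when replicate 2 was. CUT066 did not pass in WT (change 2.03, adjusted p = 0.0837). The only fall, CUT495 between HEM13 and RPC11, had 1 read in CHX and 3 in DMSO. CUT495 was also among the 44 CUTs called higher in upf1 against WT in DMSO. Both calls rest on the same 3 reads of upf1 DMSO and are not separate results. The calls in upf1 ended without any 1 of 3 libraries for CUT066, 2 for CUT850 and 3 for CUT495, and held without each library for CUT300, CUT480, CUT841, CUT605, CUT267 and CUT312.

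**Figure D3:**
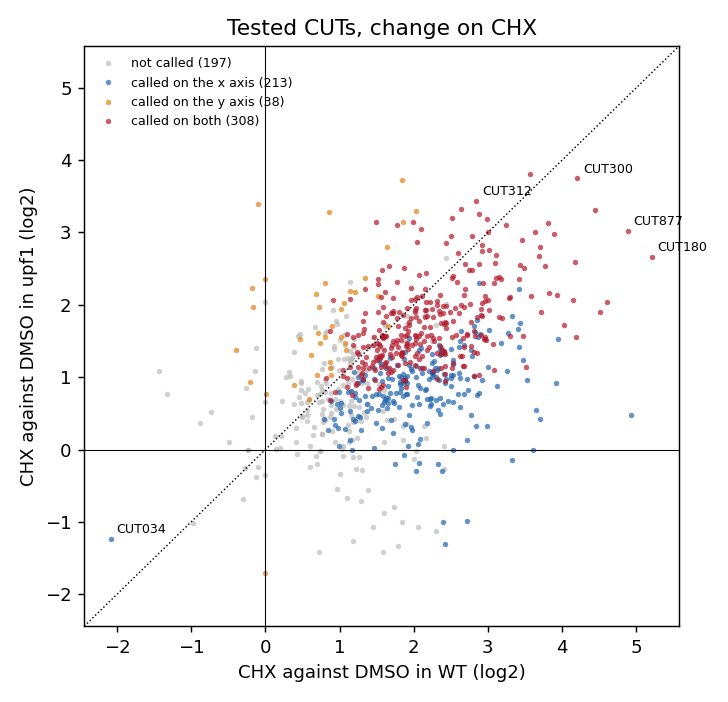
Log2 change on CHX of the 756 tested CUTs in WT (x axis) and in upf1 (y axis), 1 point per CUT, with the dotted line at equal change. Colours mark the limma calls at an adjusted p under 0.05 in either direction; 308 CUTs rose in both, and most points lie above 0 on both axes.

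In upf1 against WT in DMSO, 44 of the 756 CUTs (5.82%) rose and 3 fell, against 14.7% and 0.395% of all tested rows. XUTs rose in 23.8% and SUTs in 33% of those tested, and protein-coding genes in 13.2%. The median change was 0.37 for CUTs, 0.54 for all rows, 0.88 for XUTs and 1.03 for SUTs. For 30.3% of CUTs both upf1 libraries lay above both WT libraries, against 52.7% of all rows, and for 49 CUTs (6.48%) below them, against 4.23%. The count of 44 depends on the libraries and the fit. Without WT DMSO replicate 1 more CUTs but fewer of all rows were called, with median changes of 0.565 and 0.536. Without upf1 DMSO replicate 1 fewer of both were called, with medians of 0.201 and 0.405. Leaving out either upf1 CHX library, replicate 1 or replicate 2, also gave fewer of both. The count was 0 when the 2 groups were fitted alone, where no row of the table passed. With the coding median as reference 38 CUTs (5.03%) were higher and 16 (2.12%) lower, against 6.38% and 2.38% of all rows. After quantile normalization 9 (1.19%) and 4 (0.529%) were, against 2.84% and 0.76%.

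Of the called CUTs, 10 had at least 20 reads in the compared libraries. CUT124, on chromosome VI between YFR054C and IRC7, stood at 1.69 and 3.01 in WT with DMSO, 17.5 and 29.8 in WT with CHX, 24.8 and 19.0 in upf1 with DMSO, and 33.1 and 37.6 in upf1 with CHX. WT DMSO lay apart below the other groups, and upf1 CHX was highest. With 28 reads against 2 the ratio of upf1 to WT in DMSO was 10.2, with an interval from 2.58 to 88.6 (fitted change 2.46 ± 0.335, limma adjusted p = 0.00634).

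CUT126, before the glucose repressor gene MIG2 on chromosome VII, stood at 1.53 and 2.72 in WT with DMSO, 7.91 and 13.0 in WT with CHX, 23.8 and 15.6 in upf1 with DMSO, and 24.0 and 24.6 in upf1 with CHX. Both upf1 groups lay above both WT groups, and upf1 CHX lay just above upf1 DMSO. It too had 28 reads against 2 in DMSO, with a fitted change of 2.38 ± 0.342 (adjusted p = 0.00763). In CHX its change in upf1 was 1.11 ± 0.342 and did not pass (adjusted p = 0.142).

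CUT377, before the cytochrome c1 gene CYT1, stood at 5.52 and 1.64 in WT with DMSO, 34.5 and 38.3 in WT with CHX, 22.2 and 22.5 in upf1 with DMSO, and 52.2 and 43.4 in upf1 with CHX. It rose by 2.22 ± 0.360 in upf1 in DMSO (adjusted p = 0.0103). CUT025, listed after the acid phosphatase gene PHO5, stood at 1.77 and 3.94, 36.6 and 27.2, 20.3 and 10.8, and 50.2 and 45.7, and rose by 1.84 ± 0.369 (adjusted p = 0.0199). In both the order of groups was WT DMSO, upf1 DMSO, WT CHX and upf1 CHX without overlap.

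CUT097, before NHX1 (a sodium/proton exchanger), had that order too, with 9.14 and 4.07 in WT DMSO and 85.0 and 58.4 in upf1 CHX. CUT181, after CUT180 and before the meiotic gene REC104, stood at 2.75 and 4.89 in WT with DMSO, 69.2 and 54.2 in WT with CHX, 13.0 and 9.79 in upf1 with DMSO, and 37.6 and 37.4 in upf1 with CHX, with WT CHX highest. CUT402, between GYP5 and GAL4, the activator of the galactose genes, had 4.24 and 2.32, 35.9 and 31.1, 8.74 and 9.64, and 31.3 and 25.2. CUT017, before YRO2, completes the 8, and these 4 rose by 1.11 to 1.30 on the log2 scale in upf1 in DMSO, with limma adjusted p from 0.0277 to 0.0464. Without upf1 DMSO replicate 1, none of the 8 passed. No other library ended the call of CUT124, CUT126 or CUT377, while 4 libraries ended that of CUT025, 5 that of CUT017 and 7 each those of CUT097, CUT181 and CUT402.

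The falls included CUT567, whose values are given above, by 1.20 ± 0.302 (adjusted p = 0.0379). snR52 fell by 1.23 ± 0.299 (adjusted p = 0.0350), so the row and its neighbour moved alike. CUT285, beside the dihydroxyacetone kinase gene DAK1, stood at 30.8 and 30.5 in WT with DMSO, 48.7 and 45.9 in WT with CHX, 17.8 and 14.0 in upf1 with DMSO, and 26.8 and 26.6 in upf1 with CHX. It was lower in upf1 in both treatments without overlap, by 0.88 ± 0.232 in DMSO (adjusted p = 0.0439) and by 0.78 ± 0.232 in CHX, which did not pass (adjusted p = 0.138). CUT282, between URA5 and SEC65, had 0 reads against 2. The falls ended without any 1 of 7 libraries for CUT567 and for snR52, 8 for CUT285 and 6 for CUT282, upf1 DMSO replicate 1 among them.

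In upf1 against WT in CHX, no CUT rose and 1 fell by limma, against 0.0481% and 0.0385% of all tested rows. At an unadjusted p under 0.05, 25 CUTs were higher and 49 lower, where all rows gave 2192 higher and 265 lower, and limma voom on recovered reads called 0 CUTs higher and 8 lower (1.06%), against 1201 (11.6%) and 67 (0.645%) of all rows. The median change of CUTs was -0.18, while it was 0.43 for all rows, 0.37 for XUTs, 0.47 for SUTs and 0.58 for protein-coding genes. Negative changes made up 59.8% of CUTs and 25% of all rows. Both upf1 libraries lay below both WT libraries for 221 CUTs (29.2%), against 9.98% of all rows, and above for 115 (15.2%), against 51.9%. The CUT median stayed below 0 without each library in turn, from -0.31 to -0.08, and was -0.71 with the coding median as reference. The single call, CUT348 between ACC1 and TIM23, had 2 and 4 reads in WT CHX and none in any other library, at least 2.11-fold lower in upf1. It entered the tests only through WT CHX, the group in which it is high, so its fall and its interaction are fixed by that entry and support nothing. It was not called without any 1 of the 8 libraries, and a filter at 8 leaves it out.

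The comparisons of upf1 with WT in the 2 treatments share no library either, but they too share the residual spread of the fit. The 44 CUTs that rose in upf1 in DMSO had a median change of 0.29 in upf1 in CHX, and none passed there. Of these, 30 (68.2%) were positive, against 40.2% of all tested CUTs and 75% of all tested rows.

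**Figure D4:**
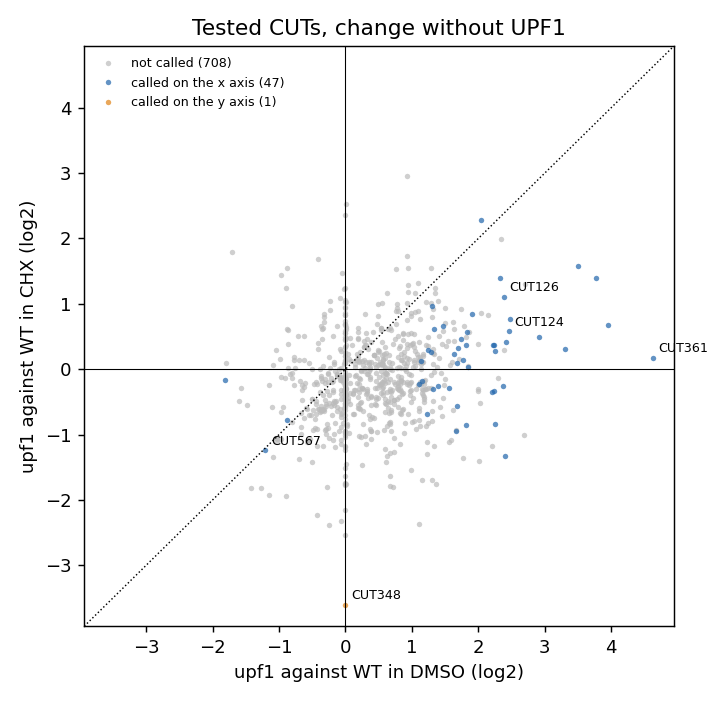
Log2 change in upf1 against WT of the 756 tested CUTs in DMSO (x axis) and in CHX (y axis), 1 point per CUT, with the dotted line at equal change. Colours mark the limma calls at an adjusted p under 0.05 in either direction, 47 in DMSO and 1 in CHX; the cloud is centred right of 0 in DMSO, at 0.37, and below 0 in CHX, at -0.18.

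The interaction asks whether CHX changed a CUT differently in upf1 and in WT. No CUT passed in either direction by limma, as was the case for all rows (0% called), and limma voom called 0 CUTs. At an unadjusted p under 0.05, 8 CUTs (1.06%) had a larger and 75 (9.92%) a smaller change in upf1, against 139 (1.34%) and 805 (7.75%) of all rows. The median was -0.54 for CUTs, -0.57 for XUTs, -0.61 for SUTs, -0.01 for protein-coding genes and -0.18 for all rows. The CUT median was nearer to those of XUTs and SUTs than to that of all rows. The smallest adjusted p was 0.134, at CUT361, CUT348 and CUT530, whose fitted changes were smaller in upf1.

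CUT361, between ATG34 and ATG19 (selective autophagy), stood at 0 and 0 in WT with DMSO, 92.1 and 37.7 in WT with CHX, 61.6 and 36.3 in upf1 with DMSO, and 69.7 and 64.3 in upf1 with CHX. CUT530, between MRP20 and the drug transporter gene PDR15, had 0 and 0, 23.0 and 25.1, 23.1 and 36.3, and 34.9 and 44.5. In both, WT DMSO had no read and each library of the other groups had some, on 6 to 17 reads in each of those groups. In the other direction CUT152, before ASK10, stood at 17.9 and 15.9 in WT with DMSO, 23.1 and 34.7 in WT with CHX, 7.73 and 9.12 in upf1 with DMSO, and 43.8 and 44.7 in upf1 with CHX, with an interaction of 1.47 ± 0.388 that did not pass (adjusted p = 0.316). CUT349 and CUT365, the others with the smallest p in that direction, had 3 and 14 reads over all libraries.

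Calls depend on reads, so the share called was also split by the mean level over all libraries, in scaled reads per kb. At the same level a short row has fewer reads than a long one, and CUTs were shorter than SUTs and XUTs. The split therefore does not match rows by reads. In the 4 quartiles of CUT level, from low to high, 54.5%, 65.1%, 76.7% and 78.8% of CUTs rose on CHX in WT, against 48%, 62.8%, 72.4% and 81.4% of all rows within the same levels. On CHX in upf1 the shares were 30.2%, 43.9%, 52.4% and 56.1% of CUTs and 39.6%, 56.1%, 64.3% and 78.4% of all rows. In upf1 against WT in DMSO they were 1.06%, 4.23%, 6.88% and 11.1% against 3.11%, 9.87%, 17.3% and 21.2%. In each quartile CUTs were thus called less often than all rows in the last 2 comparisons. On CHX in WT they were called more often except in the highest quartile. That quartile is wide, from 14.8 to 1199 scaled reads per kb, with 189 CUTs and 4466 of all rows. These shares carry no test, and whether they hold at equal reads was not tested. By recovered length, 70.7%, 74%, 82.4% and 79.4% of CUTs rose on CHX in WT from the shortest to the longest quartile, among those with at least 20 reads.

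**Figure D5:**
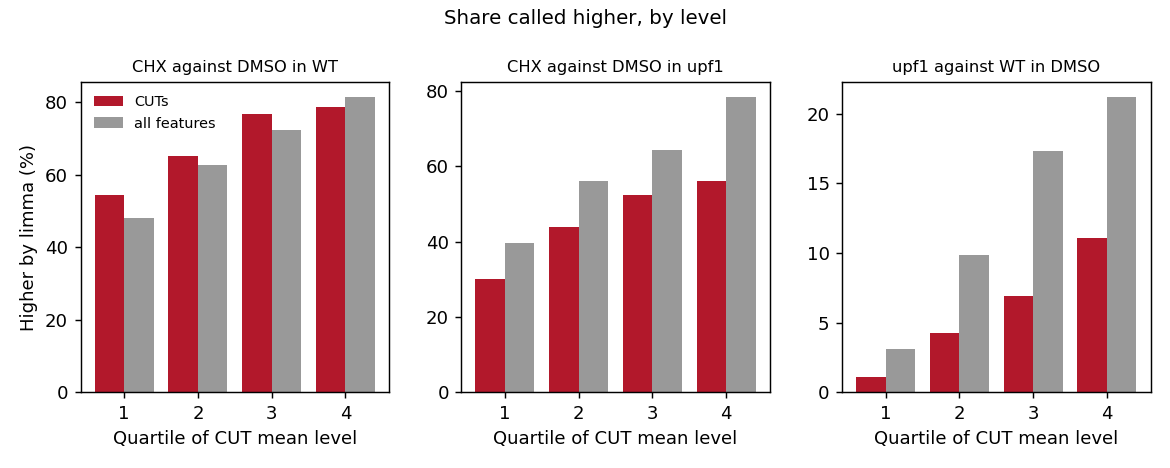
Share of rows called higher by limma (y axis, %) in quartiles of the CUT mean level (x axis, 1 lowest), for CUTs (red) and for all tested rows within the same levels (grey). On CHX in upf1 and in upf1 against WT in DMSO the red bar is the lower one in every quartile; the y axes differ between panels.

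The 23 tested CUTs beside a snoRNA row had median changes on CHX of 1.74 in WT and 1.17 in upf1, near the medians of all tested CUTs, with 12 (52.2%) called higher in WT and 13 (56.5%) in upf1, against 68.8% and 45.6% of all tested CUTs and 69.8% and 64.1% of all rows. In upf1 against WT in DMSO none of them rose, 1 fell (CUT567), and their median change was -0.07. Without the CUTs beside snoRNAs, an alternative chosen after seeing the data, 509 CUTs (69.4%) rose on CHX in WT, 332 (45.3%) on CHX in upf1 and 46 (6.28%) in upf1 against WT in DMSO. The snoRNAs beside CUTs did not all rise on CHX in WT. Besides snR52, snR62 and snR71, limma called snR80 (1.20), snR46 (0.74) and snR36 (0.74) higher. It called snR64 lower, by 0.86 ± 0.326 (adjusted p = 0.0457), and the rest did not pass. These snoRNAs are named after their values were seen.

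The mRNAs of the machinery that ends and degrades CUTs were measured as well. A list of 26 genes held the nuclear exosome and its cofactors, TRAMP, Nrd1-Nab3-Sen1, the nuclear cap-binding complex, and PCF11, PTI1 and SSU72, factors of mRNA 3′-end processing and termination. All 26 were tested, and by limma 17 (65.4%) rose on CHX in WT, 20 (76.9%) on CHX in upf1, 1 (3.85%) in upf1 against WT in DMSO and none in CHX, where 69.8%, 64.1%, 14.7% and 0.0481% of all tested rows rose. The shares on CHX were near those of the whole table and are not a result about the list. Their median changes were 1.20, 1.30, 0.42 and 0.54, against 1.42, 1.22, 0.54 and 0.43 for all rows. NRD1, which binds its own early transcript and ends it, stood at 47.1 and 46.5 in WT with DMSO, 218 and 169 in WT with CHX, 60.6 and 42.2 in upf1 with DMSO, and 235 and 196 in upf1 with CHX. The treatments were well apart and the strains overlapped in each, with rises of 1.99 ± 0.250 in WT (adjusted p = 0.000854) and 2.04 ± 0.250 in upf1 (adjusted p = 0.00227).

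The exosome nucleases were among the genes called on CHX. RRP6, the nuclear 3′ exonuclease, stood at 5.18 and 3.55 in WT with DMSO, 14.4 and 10.1 in WT with CHX, 9.99 and 3.25 in upf1 with DMSO, and 21.1 and 15.9 in upf1 with CHX, and DIS3, the nuclease of the exosome core, rose by 1.23 ± 0.236 in WT and 1.30 ± 0.236 in upf1. RRP6 rose by 1.16 ± 0.436 in WT (adjusted p = 0.0439) and 1.36 ± 0.436 in upf1 (adjusted p = 0.0288). SEN1, the helicase of the termination complex, rose by 0.75 ± 0.271 and 1.14 ± 0.271, and NAB3 by 1.14 ± 0.308 in upf1, with a change of 0.78 in WT that did not pass (adjusted p = 0.0513). MTR4, the helicase of TRAMP, and PAP2, its poly(A) polymerase Trf4, passed in no comparison, and MTR4 changed by 0.19 ± 0.308 in WT. RRP40, an exosome cap subunit, was the one gene of the list called higher in upf1 in DMSO and is named after its values were seen, from 36.2 and 37.4 to 61.5 and 65.4 (0.76 ± 0.191, adjusted p = 0.0386). This last call ended without any 1 of the 8 libraries, that of RRP6 without any 1 of 6 in WT and 3 in upf1, that of SEN1 without any 1 of 5 in WT and 1 in upf1, and that of NAB3 without any 1 of 3. The calls of NRD1 and DIS3 held without each library.

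At the edge of the filter, CUT766, CUT747 and CUT626 had means of 2.05, 2.05 and 2.09 scaled reads per kb and were tested, while CUT663, CUT455 and CUT658, at 1.96, 1.96 and 1.98, were not. The 3 inside had 5 to 7 reads over all libraries with none in DMSO in either strain. The filter uses the mean of all libraries, and 50 of the tested CUTs had no read in any DMSO library and passed it through the CHX groups alone.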

How the data were processed

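The deposited table holds a density signal per row, normalized by the authors, in a column per library, and a mean per group that was not used. Tools named in the submitters' processing notes are HISAT2 2.2.0 and featureCounts 2.0.0 next to Trim Galore and DESeq2, with R64 as the build and no role for any; how reads on overlapping rows were counted is not given in the sources used here. Whole lengths and library factors were recovered from the steps of the densities, giving whole reads for 100.0% of positive values within 0.001 reads; for CUTs with few reads the length is the smallest that fits. The factors were checked against size factors (the median over rows of reads over the row's geometric mean) of the rows of a class read in every library. Densities times 1000 plus 2 were taken to log2 and tested with limma 3.58.1 in R 4.3.3, with a variance trend, over the 10392 rows with a mean of at least 2, ribosomal RNA rows left out. All 8 libraries entered 1 fit of 4 groups, with 4 residual and 3.60 prior degrees of freedom. P-values are two-sided and were adjusted by Benjamini-Hochberg over every row tested in a comparison, and calls were made under 0.05. The script was tested on simulated data.

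CUTs named are the 12 of the highest mean, up to 8 called rises and falls of largest size per comparison with at least 20 reads in its libraries, the 3 smallest p in each direction of the interaction, the 3 either side of the filter, the shortest and the longest, and 3 that share all reads with another row. CUT034, CUT495, CUT282 and CUT348, called on fewer reads, were named after their values were seen. Folds against a group without reads use 3 reads over that group, and ratios against 1 to 3 reads have exact 95% intervals. Alternatives were other pseudocounts (0.5 and 8), no filter and a filter at 8, a common coding median, quantile normalization, limma voom on recovered reads, the 2 groups alone, a replicate block, and leaving out each library, the CUTs that share all reads or those beside snoRNAs. The members and lists were chosen with earlier results of these data known.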

Additional observations from a re-analysis of the deposited data

How the results depend on the processing

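Setting a common coding median or quantile normalization moved most counts and sums, as given in the report, and quantile normalization turned the median CUT change to -0.064 on CHX in upf1 and to -0.34 in upf1 against WT in DMSO. The CUT sums with the coding median changed by 0.12, -0.31, -0.55 and -0.98 on the log2 scale in the 4 comparisons, and by 2.15, 1.45 and 0.50 in the first 3 without the 12 highest CUTs. A filter at 8 left 395 CUTs tested. It gave 310 higher (78.5%, all rows 79.2%) and 0 lower CUTs on CHX in WT. In upf1 it gave 214 (54.2%, all rows 74.5%) and 0, and in upf1 against WT in CHX 0 lower. The coding median gave 161 and 16, 11 and 7, and 16 lower in upf1 in DMSO, and quantile normalization 50 and 25, 8 and 8, and 9 higher. A pseudocount of 0.5 gave 0 lower on CHX in either strain, 73 higher (9.66%, all rows 17.4%) in upf1 in DMSO and 0 lower in upf1 in CHX. A pseudocount of 8 gave 17 higher (2.25%, all rows 7.96%) and 0 lower in upf1 in DMSO. In upf1 in CHX it gave 1 and 2 (0.132% and 0.265%, all rows 1.02% and 0.183%). Voom gave 0 lower on CHX in upf1 and 8 lower in upf1 in CHX. In upf1 in DMSO it gave 13 higher (1.72%, all rows 14%) and 1 lower (0.132%, all rows 0.327%). The 2 groups alone gave 0 lower in every comparison and 0 higher in upf1 in DMSO. Fewer samples enter that fit; for the other settings the cause was not tested. The interaction had 4 lower CUTs (0.529%, all rows 0.106%) with a pseudocount of 0.5 and 2 (0.265%, all rows 0.077%) with the coding median.

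Without each library in turn, higher and lower counts ran from 319 to 526 and from 0 to 2 on CHX in WT, from 132 to 382 and from 0 to 10 in upf1, from 6 to 67 and from 0 to 3 in upf1 in DMSO, and lower counts were 0 throughout in upf1 in CHX. The lone library left in a group is assumed to vary like the others. The sums kept their directions there, from 1.51 to 1.79, 1.12 to 1.25, 0.07 to 0.35 and -0.35 to -0.15.

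Replicate numbers are shared between groups, and deviations of same-numbered libraries correlated at -0.044 to 0.117. Values this low, over rows with few reads, cannot tell whether same-numbered libraries shared a batch. With the replicate number as a block, 527 CUTs were higher (69.7%, all rows 70.3%) and 2 lower (0.265%, all rows 0.173%) on CHX in WT. On CHX in upf1 361 were higher (47.8%, all rows 65.3%). In upf1 against WT 45 were higher in DMSO (5.95%, all rows 15.6%) and 0 lower in CHX. Depth limits single CUTs most, since the median CUT has 0 or 1 read in WT DMSO.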
